A study of Mus musculus with 6 samples.

Results

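Aminoacyl-tRNA synthetases, the enzymes that load each transfer RNA with its amino acid, were followed in 3T3-L1 adipocytes that express uncoupling protein 1 (UCP1). The list held 35 genes, 20 for the cytosolic enzymes and 15 for the mitochondrial ones, whose symbols end in 2. The mitochondrial histidine enzyme Hars2 was not in it and was counted with further genes of mitochondrial tRNA charging. A gene counted as measured when a probe carried its symbol alone in the platform annotation, and the brightest such probe (mean log2 intensity of the 6 arrays) stood for it. This gave 34 members, 19 cytosolic and 15 mitochondrial, out of 18014 genes measured in the series. Dars, the aspartate enzyme, had no such probe and was not analysed here, and the methionine enzyme Mars is listed by the platform as Mars1.

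3T3-L1 is a mouse preadipocyte line that turns into fat-storing adipocytes when given an adipogenic mixture. The control group was 3 one-colour CodeLink arrays of cells that carried the Tet-off plasmid and nothing further, and the other group was 3 arrays of cells expressing UCP1. All RNA was taken 10 days after differentiation. Arrays were assigned by the source description of their RNA. The titles of the UCP1 arrays end in a digit that may or may not be a replicate number. UCP1 1 to 3 are therefore names in the order of the sample records, and were not taken to pair with a control. The labels name no promoter, clone or inducer, and leave unsaid whether the UCP1 cells also carried the Tet-off plasmid. They name no separate culture for any array either, and a p-value here therefore reflects array-to-array spread that could be purely technical. Intensities are on a scale on which the median probe of each array reads 1.04 to 1.05. A lower intensity from less RNA per cell cannot be told apart from one due to fewer cells of a type.

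Synthetases for the cytosol and for the mitochondrion are all encoded in the nucleus, and usually a separate gene serves each compartment. Gars and Kars are exceptions, since each encodes both the cytosolic and the mitochondrial enzyme, and mitochondria lack a glutamine enzyme of this family, and an amidotransferase there converts glutamate already loaded on the glutamine tRNA. Several cytosolic enzymes travel together in the multisynthetase complex, held by the scaffold proteins AIMP1, AIMP2 and EEF1E1. Many cytosolic synthetase genes are known targets of ATF4, the transcription factor of the amino acid response, which binds a composite C/EBP-ATF element.

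Promoters of the members were searched for that element, written TGATGNAA, on both strands in windows from 250 bases before to 50 bases after each RefSeq start on GRCm38.p6. Windows were found for 26 of the 34 members. The element was present in 5 of 12 cytosolic members (41.67%) and in 0 of 14 mitochondrial ones, beside 1219 of 27025 genes in the whole table (4.51%) and 6 of 22 amino acid response genes other than synthetases (27.27%). These shares were not tested against each other. A match is a run of letters, not a bound site, and these arrays measured no binding. No window was in the table for Cars, Hars, Lars, Nars, Rars, Vars, Wars and Pars2. The 5 windows that hold the element are shown with the match in capitals, read 5′ to 3′ along the gene, followed by that of Cars2, the one member past the threshold, which has no match.

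The alanine enzyme's window lies at chr8:111033592-111033891 on the plus strand, with matches that begin 112 bases before and 10 bases after the start, both on the opposite strand.
Aars: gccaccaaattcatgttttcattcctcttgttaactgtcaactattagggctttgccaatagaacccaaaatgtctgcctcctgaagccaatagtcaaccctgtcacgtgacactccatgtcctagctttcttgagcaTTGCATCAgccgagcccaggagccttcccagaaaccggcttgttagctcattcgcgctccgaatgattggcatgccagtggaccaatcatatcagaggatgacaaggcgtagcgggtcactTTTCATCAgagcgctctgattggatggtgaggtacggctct

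The glycine enzyme's window lies at chr6:55037751-55038050 on the plus strand, with 1 match on the opposite strand that begins 30 bases before the start.
Gars: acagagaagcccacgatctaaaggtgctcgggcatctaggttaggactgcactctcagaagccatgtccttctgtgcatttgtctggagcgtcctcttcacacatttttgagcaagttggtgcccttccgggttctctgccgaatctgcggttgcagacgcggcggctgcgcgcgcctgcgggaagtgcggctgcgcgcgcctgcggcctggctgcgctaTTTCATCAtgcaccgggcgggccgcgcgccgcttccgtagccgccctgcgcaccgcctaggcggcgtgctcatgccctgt

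The isoleucine enzyme's window lies at chr13:49681880-49682179 on the plus strand, with 1 match on the opposite strand that begins 8 bases after the start.
Iars: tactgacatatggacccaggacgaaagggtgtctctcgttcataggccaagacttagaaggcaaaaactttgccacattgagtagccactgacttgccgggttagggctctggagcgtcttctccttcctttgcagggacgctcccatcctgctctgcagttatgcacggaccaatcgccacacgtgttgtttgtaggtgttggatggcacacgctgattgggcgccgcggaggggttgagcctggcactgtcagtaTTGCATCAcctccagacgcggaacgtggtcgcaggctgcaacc

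The threonine enzyme's window lies at chr15:11399609-11399908 on the minus strand, with 1 match on the opposite strand that begins 15 bases before the start.
Tars: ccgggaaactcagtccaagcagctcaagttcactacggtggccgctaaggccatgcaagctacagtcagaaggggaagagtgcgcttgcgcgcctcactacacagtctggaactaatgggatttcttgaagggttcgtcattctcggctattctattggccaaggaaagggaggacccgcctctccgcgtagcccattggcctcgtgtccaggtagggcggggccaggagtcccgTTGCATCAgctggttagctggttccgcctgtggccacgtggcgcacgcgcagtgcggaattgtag

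The tyrosine enzyme's window lies at chr4:129189653-129189952 on the plus strand, with 1 match on the gene's own strand that begins 4 bases after the start.
Yars: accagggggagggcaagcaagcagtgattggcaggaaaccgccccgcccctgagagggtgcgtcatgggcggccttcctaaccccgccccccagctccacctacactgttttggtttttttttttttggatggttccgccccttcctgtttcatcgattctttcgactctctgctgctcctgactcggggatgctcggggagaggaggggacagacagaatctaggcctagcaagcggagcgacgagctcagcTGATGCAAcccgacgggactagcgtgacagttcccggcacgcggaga

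The mitochondrial cysteine enzyme's window lies at chr8:11550722-11551021 on the minus strand.
Cars2: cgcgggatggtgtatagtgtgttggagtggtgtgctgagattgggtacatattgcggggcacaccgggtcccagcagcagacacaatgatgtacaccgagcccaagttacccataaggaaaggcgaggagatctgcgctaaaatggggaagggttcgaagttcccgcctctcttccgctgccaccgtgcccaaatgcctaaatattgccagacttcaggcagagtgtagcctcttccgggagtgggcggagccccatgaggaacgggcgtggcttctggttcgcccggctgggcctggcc

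Among the 12 cytosolic members searched, those with and without a match had similar medians. In the 5 with one the median difference between UCP1 and control was -0.38 on the log2 scale, with a range from -0.82 for Yars to -0.003 for Aars. In the 7 searched that had none it was -0.36, with a range from -0.72 to -0.03. Cytosolic members with no window, which ran from -0.95 for Cars to 0.02 for Rars, are in neither group.

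Synthetase intensity was mostly a little lower in UCP1 cells, in both compartments. Of 34 members 32 had a difference below 0, with a median of -0.34 for the cytosolic and -0.25 for the mitochondrial enzymes, against -0.08 over all 18014 genes, of which 60.1% lay below 0. In 17 of the 34 (50%) every UCP1 array read below every control array, 10 cytosolic and 7 mitochondrial. Over all genes that share was 17.1%, and over the 10775 genes at or above the brightness of the median probe it was 23.7%. No member had every UCP1 array above every control, which 8.09% of all genes had.

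Few of these differences passed the threshold. With limma and Benjamini-Hochberg adjustment over all 36116 probes, at a threshold of 0.05, 1 of the 34 members fell, the mitochondrial Cars2, and 0 rose. The same calls were made for 2.92% of all genes lower and 1.13% higher. Among the 10775 genes at or above the brightness of the median probe 4.67% were called lower. The members' share, 2.94% lower, was close to the first of these backgrounds and below the brighter one. At an unadjusted p under 0.05 there were 10 cytosolic and 7 mitochondrial members lower and 0 higher (limma). By that measure 15.1% of all genes were lower, and 2403 of the 10775 brighter ones.

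**Figure D1:**
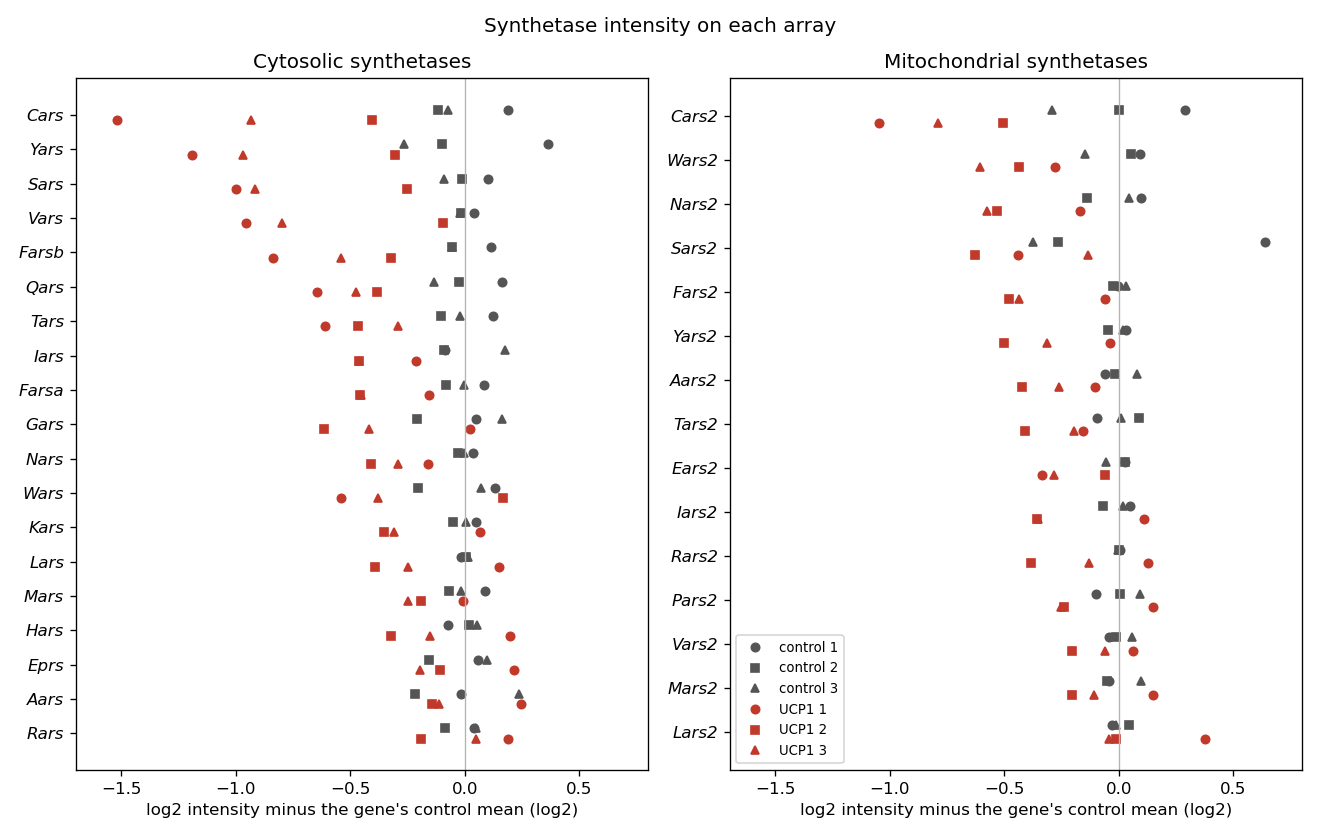
Each row is a synthetase gene and each point 1 array, as log2 intensity minus the gene's mean over the 3 control arrays (grey, controls; red, UCP1; shapes give the array). The red points of Cars, Yars, Sars and Vars spread widely to the left with UCP1 array 1 lowest, while those of Aars, Eprs, Rars and Lars2 overlap the controls, with UCP1 array 1 beyond all of them.

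Cars2, which loads cysteine in mitochondria, read 3.51, 2.87 and 2.34 on the control arrays and 1.39, 2.02 and 1.66 on the UCP1 arrays. The groups did not overlap, with UCP1 2 the closest to the controls. It fell by 0.78 ± 0.184 (SE) on the log2 scale, 1.72-fold (limma, adjusted p = 0.0457). The call was lost without the intensity trend of the variance, a setting in which 0 probes were called (adjusted p = 0.284, with 4951 probes at an unadjusted p under 0.05). It was lost too with cyclic loess (0.0728), a replicate block (0.0661) and the mean over a gene's probes (0.055). It was also lost after quantile normalization, which gives all arrays the same distribution (-0.73, adjusted p = 0.0769), and without control 1 (-0.64, adjusted p = 0.174), control 2 (-0.78, 0.113), UCP1 1 (-0.65, 0.077) or UCP1 3 (-0.78, 0.2).

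Among the cytosolic enzymes, the cysteine enzyme Cars had the largest difference, though it did not pass. It read 1.87, 1.51 and 1.56 on the control arrays and 0.571, 1.24 and 0.857 on the UCP1 arrays. Every UCP1 array was lower, with UCP1 2 nearest to the controls, and the difference was -0.95 ± 0.25 (SE; limma, adjusted p = 0.0668). Both cysteine enzymes thus had the lowest value of their class, which is a description of 2 probes.

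Yars, the tyrosine enzyme, read 4.94, 3.59 and 3.20 on the controls and 1.68, 3.11 and 1.96 on the UCP1 arrays. UCP1 2 lay just under the lowest control, while the other UCP1 arrays were well below. The difference was -0.82 ± 0.223 (SE; limma, adjusted p = 0.0738), or 1.77-fold.

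Sars, which loads serine and also the tRNA later converted for selenocysteine, read 8.03, 7.42 and 7.03 on the controls and 3.74, 6.28 and 3.96 on the UCP1 arrays. Again UCP1 arrays 1 and 3 were low and UCP1 2 was close to the controls. Its difference of -0.72 ± 0.176 (SE) lay just outside the threshold (limma, adjusted p = 0.0517). Vars, the valine enzyme, had the same order, at 6.18, 5.93 and 5.92 against 3.10, 5.63 and 3.45, with -0.62 ± 0.188 (SE; limma, adjusted p = 0.106). Without UCP1 2, Sars was at -0.96 (adjusted p = 0.0018), Vars at -0.88 (0.00294), Yars at -1.08 (0.00571) and Cars at -1.23 (0.00719), each then past the threshold (limma). None of these 4 passed with any other array left out, where the adjusted p ran from 0.0698 to 0.385. Calls over all probes also rose without UCP1 2, from 1021 to 1894.

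Farsb, the subunit that pairs with Farsa to form the cytosolic phenylalanine enzyme, read 15.2, 13.5 and 13.5 on the controls and 7.86, 11.2 and 9.66 on the UCP1 arrays. The groups were apart, and its difference was -0.57 ± 0.137 (SE; limma, adjusted p = 0.0507). Farsa was apart too, at 23.8, 21.2 and 22.4 against 20.1, 16.3 and 16.4, with a smaller difference of -0.36 ± 0.121 (SE; limma, adjusted p = 0.145). The other Farsa probe, which read 0.286 to 0.772 on all arrays, gave -0.48 ± 0.36 (SE).

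Tars, the threonine enzyme, read 10.2, 8.72 and 9.25 on the controls and 6.13, 6.79 and 7.66 on the UCP1 arrays, apart by a small gap. Its difference was -0.46 ± 0.122 (SE; limma, adjusted p = 0.0712). Nars, the asparagine enzyme, went from 39.5 ± 0.925 (SD, n = 3) to 32.4 ± 2.80 (SD, n = 3), with groups apart and a difference of -0.29 ± 0.117 (SE; limma, adjusted p = 0.231).

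The remaining cytosolic enzymes outside the complex overlapped between groups. Gars read 258, 216 and 279 on the controls and 254, 163 and 187 on the UCP1 arrays, so UCP1 1 lay among the controls and the others below them. Its difference of -0.34 ± 0.203 (SE) had a 95% interval from -0.78 to 0.11. Wars, the tryptophan enzyme, which interferon induces, was at -0.25 ± 0.217 (SE), and its UCP1 2 reading of 1.23 exceeded all controls. Hars, the histidine enzyme, was at -0.09 ± 0.142 (SE), and Aars at -0.003 ± 0.16 (SE) with a 95% interval from -0.35 to 0.35.

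The enzymes of the multisynthetase complex had a median nearer 0 than the other cytosolic enzymes. The 7 measured had a median of -0.17, and 2 of them (28.6%) had groups apart. The 12 outside the complex had a median of -0.41, and 8 (66.7%) were apart, beside the 17.1% of all genes. After quantile normalization the medians were -0.002, with 4 of 7 below 0, and -0.29, with 10 of 12 below 0. The difference between these subsets was not tested, and 0 members of either were called (limma, all probes), with 2 and 8 lower at an unadjusted p under 0.05, as were 15.1% of all genes. The subsets also differ in probe brightness. Control means under 10 were those of Lars in the complex and of Cars, Wars, Yars, Vars, Sars and Tars outside it. How far brightness enters the gap was not tested.

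Qars, the glutamine enzyme, had the lowest value of the complex. It read 20.1, 17.7 and 16.3 on the controls and 11.5, 13.8 and 12.9 on the UCP1 arrays. All UCP1 arrays were lower, with the order of the groups clear, and the difference was -0.50 ± 0.122 (SE; limma, adjusted p = 0.0506). Iars, the isoleucine enzyme, was the other one apart, at 28.4, 28.3 and 34.0 against 26.0, 21.8 and 21.9, with -0.38 ± 0.127 (SE; limma, adjusted p = 0.137).

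The other complex members overlapped. Kars, the lysine enzyme, was at -0.20 ± 0.143 (SE), Lars, the leucine enzyme, at -0.17 ± 0.139 (SE), and Mars at -0.15 ± 0.115 (SE). Eprs, a single protein with both the glutamate and the proline enzyme, was at -0.03 ± 0.152 (SE), and Rars, the arginine enzyme, at 0.02 ± 0.124 (SE), the only cytosolic member above 0 in the deposited scaling. A 2nd probe of Lars gave -0.27 ± 0.182 (SE). Of the scaffolds, Aimp2 had the smallest p, at -0.40 ± 0.115 (SE; limma, adjusted p = 0.0907), beside -0.06 for Aimp1 and -0.11 for Eef1e1.

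Mitochondrial enzymes other than Cars2 had smaller differences, none past the threshold. Nars2 read 15.8, 13.4 and 15.2 on the controls and 13.1, 10.2 and 9.89 on the UCP1 arrays. The groups were apart, with UCP1 1 just under the lowest control, and the difference was -0.43 ± 0.133 (SE; limma, adjusted p = 0.111). Wars2 was also apart, at 2.17, 2.11 and 1.84 against 1.68, 1.503 and 1.34, with -0.44 ± 0.152 (SE; limma, adjusted p = 0.15).

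Fars2, the single-chain phenylalanine enzyme, was at -0.33 ± 0.131 (SE) with groups apart. Aars2 was at -0.26 ± 0.117 (SE), Tars2 at -0.25 ± 0.115 (SE) and Ears2, which loads glutamate and also charges the glutamine tRNA before its conversion, at -0.23 ± 0.116 (SE). These 3 were apart as well, while Yars2, at -0.28 ± 0.13 (SE), was not.

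Several mitochondrial members had differences nearer 0, on UCP1 arrays that did not go the same way. Rars2 was at -0.13 ± 0.133 (SE), Pars2, the proline enzyme, at -0.11 ± 0.131 (SE), Vars2 at -0.07 ± 0.131 (SE) and Mars2 at -0.05 ± 0.125 (SE). In each of these UCP1 1 read above all controls and the other UCP1 arrays below all of them. Lars2, the leucine enzyme, was the only mitochondrial member above 0 in the deposited scaling, at 0.11 ± 0.142 (SE). It read 55.2, 58.0 and 55.9 on the controls against 73.2, 55.8 and 54.7. In that scaling the excess came from UCP1 1, since the difference was -0.03 without it. Sars2 was close to the dimmest probes, above 5.33% to 25.8% of probes on each array, and its difference of -0.40 ± 0.582 (SE) has a 95% interval from -1.67 to 0.87.

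Iars2 gave opposite answers on its probes. The brighter one was at -0.20 ± 0.151 (SE), reading 68.7, 63.3 and 67.3 against 71.7, 51.8 and 52.0. The dimmer one was at 0.41 ± 0.16 (SE), reading 2.04, 2.53 and 2.19 against 2.41, 3.24 and 3.39. Neither passed (limma, adjusted p = 0.557 and 0.207), so no direction can be given for this gene.

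The cytosolic and mitochondrial classes had similar differences. The median difference of the cytosolic class was -0.08 from the mitochondrial one on the log2 scale (-0.34 against -0.25). With 1 array left out this gap ran from -0.16 without control 2 to -0.033 without UCP1 3. As medians over members relative to the control mean, the cytosolic enzymes were at 0.06, -0.08 and -0.002 on the control arrays and -0.16, -0.32 and -0.38 on the UCP1 arrays. The mitochondrial enzymes were at 0.004, -0.01 and 0.02 on the controls and -0.06, -0.41 and -0.26 on the UCP1 arrays. Within each array, cytosolic minus mitochondrial came to 0.05, -0.07 and -0.02 on the controls and -0.10, 0.09 and -0.12 on the UCP1 arrays, so the order of the classes turned on UCP1 2 and the groups overlapped.

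For 12 amino acids a cytosolic and a mitochondrial gene were both measured. In 8 of these pairs the cytosolic gene had the lower difference, and in 10 both genes were below 0. Without the pairs of Iars2, whose probes disagree, and Sars2, which was dim, these were 6 and 8 of 10. The widest gaps were for valine, with Vars at -0.62 and Vars2 at -0.07, and tyrosine, with Yars at -0.82 and Yars2 at -0.28. The order was the other way for alanine, where Aars was at -0.003 and Aars2 at -0.26. The median gap of the 12 pairs was -0.18, and a gap between different probes also carries the difference of their brightness. Phenylalanine, glutamate and proline, whose genes are named otherwise, and histidine, whose Hars2 was not a member, are not among these pairs. Farsa was at -0.36 and Farsb at -0.57 beside Fars2 at -0.33. Eprs was at -0.03 beside Ears2 at -0.23 and Pars2 at -0.11, and Hars at -0.09 beside Hars2 at -0.19.

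**Figure D2:**
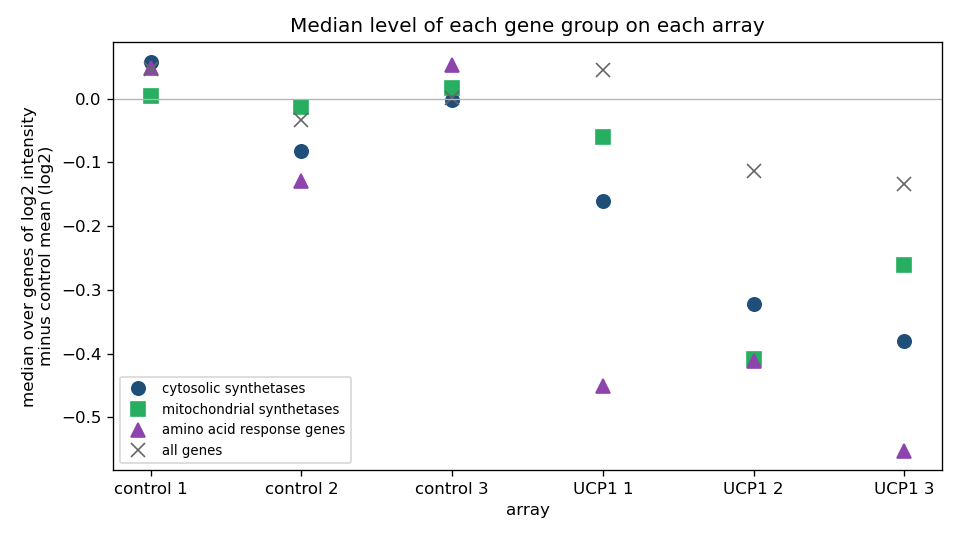
For each of the 6 arrays, the median over genes of log2 intensity minus the gene's control mean is shown for cytosolic synthetases (circles), mitochondrial synthetases (squares), amino acid response genes (triangles) and all genes (crosses). The amino acid response genes lie between -0.41 and -0.55 on every UCP1 array, the synthetase classes between -0.06 and -0.41 with their order reversed on UCP1 2, and all genes between -0.13 and 0.04.

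The UCP1 arrays did not move together. UCP1 1 gave the lowest of the 3 UCP1 readings for 8 of the 19 cytosolic members and the highest for the other 11. Among mitochondrial members it was the lowest for 2 of 15 and the highest for 12. On that array 12 of 19 cytosolic and 9 of 15 mitochondrial members lay below their control mean, against 18 and 15 on each of the other UCP1 arrays. Without UCP1 1, 2 cytosolic members (Farsa and Iars) and 3 mitochondrial ones (Fars2, Nars2 and Yars2) passed the threshold, and without UCP1 2, 6 cytosolic members and Cars2 did. In each of these settings 1894 probes were called, against 1021 with all arrays, so calls became more frequent over the whole array and not only among synthetases.

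In the deposited scaling the median difference was larger for members on dim probes, while over all genes it was larger on bright ones. Of cytosolic members with a control mean under 10 the median was -0.62 (7 genes), from 10 to 30 it was -0.36 (5 genes) and at 30 and over -0.20 (7 genes). Over all genes in the same ranges it was -0.03, -0.14 and -0.19. Mitochondrial members gave -0.31 (6 genes), -0.26 (7 genes) and -0.05 (2 genes). After quantile normalization the cytosolic medians were -0.51, -0.21 and 0.0099 and the mitochondrial ones -0.24, -0.14 and 0.16, while those of all genes were 0.011, -0.012 and 0.025, with no trend left. These ranges sort probes by brightness, which depends on the probe, and do not rank the genes by abundance.

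The members' medians were nearer 0 after quantile normalization, and the median of all genes rose too. In the deposited scaling the medians were -0.34 for cytosolic and -0.25 for mitochondrial members, against -0.08 over all genes. After quantile normalization the median was -0.21 for cytosolic and -0.14 for mitochondrial members, against 0.01 over all genes, a shift of the median of all genes by less than 0.1. Members below 0 then numbered 14 of 19 and 11 of 15, and 0 were called (limma), where 1.72% of all genes were called lower and 2.27% higher. The members that turned to above 0 included Aars, at 0.22, and Eprs, at 0.21, beside Rars, which stayed above 0 at 0.16, so no direction holds for these. Those with the lowest values kept their sign and most of their size, with Cars at -0.93, Yars at -0.76, Cars2 at -0.73, Sars at -0.62 and Vars at -0.51.

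The steps of translation next to the synthetases had few calls. Of 7 cytosolic elongation factors 1 fell, Eif5a, which helps ribosomes past stalling peptides, by 0.62 ± 0.139 (SE; limma, adjusted p = 0.0371). Of 9 mitochondrial elongation, initiation and release factors 1 fell, the initiation factor Mtif2, by 0.80 ± 0.189 (SE; limma, adjusted p = 0.0473). The medians of these lists were -0.32 and -0.20, and -0.045 and 0.020 after quantile normalization. Neither call was kept there, with Eif5a at -0.48 (adjusted p = 0.149) and Mtif2 at -0.74 (0.0921).

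Genes that make and mend tRNA had 0 calls. Among 15 genes of tRNA maturation and export the median was -0.21, and Tsen34, a subunit of the tRNA splicing endonuclease, had the smallest p, at -0.50 ± 0.125 (SE; limma, adjusted p = 0.058). Among 4 genes of tRNA editing and deacylation the median was -0.21, with Ptrhd1 at 0.61 ± 0.226 (SE). Of 5 further genes of mitochondrial tRNA charging the median was -0.19, with Gatc, a subunit of the amidotransferase that completes glutamine tRNA, at -0.33 ± 0.156 (SE). After quantile normalization the medians were -0.048, -0.079 and -0.045. At an unadjusted p under 0.05 these lists had 6, 1 and 0 genes lower and 0, 1 and 0 higher (limma), where 15.1% of all genes were lower.

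The amino acid response genes other than synthetases had a lower median on the same arrays, a difference that was not tested. All 24 measured were below 0, with a median of -0.51, and 8 fell (33.3%, against the 2.92% of all genes given above). The largest were Slc7a5 at -1.33 and Slc3a2 at -1.15, which form an amino acid exchanger, the pseudokinase Trib3 at -1.31 and Chac1, which degrades glutathione, at -1.18. The other called genes were Ddit4 at -1.07, Ppp1r15a at -0.58, Vldlr at -0.54 and Slc6a9 at -0.49. After quantile normalization 21 of 24 were below 0, with a median of -0.34, and 4 were called. Of the 8 named, Trib3, Chac1 and Ddit4 kept their call, while Slc7a5 (adjusted p = 0.0624) and Slc3a2 (0.0938) were among those that lost it. The other call was Psat1, a serine synthesis enzyme, at -0.45 (0.031), which had not passed before (0.0537). These genes had already been seen to be low in these data, so they lend the synthetases no independent support.

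Atf4 itself was at -0.25 ± 0.192 (SE) and at 0.12 after quantile normalization, so its transcript has no settled direction. Asns, the asparagine synthetase, was at -0.38 ± 0.139 (SE; limma, adjusted p = 0.178). None of 11 measured genes for eIF2 kinases, eIF2 and its exchange factor eIF2B was called (limma). At an unadjusted p under 0.05, 3 were lower and 0 higher, and the median of the list was -0.21. After quantile normalization it was -0.058, with 6 of 11 below 0. Of these Eif2ak1, the haem-regulated kinase, had the smallest p, at -1.15 ± 0.391 (SE), on a probe that read 0.14 to 0.466.

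Checks of the labels came from single genes and marker lists. Ucp1 read 0.222 to 0.278 on the controls and 1.54 to 2.34 on the UCP1 arrays, and rose by 3.00 ± 0.234 (SE; limma, adjusted p = 0.00013). Of 10 adipocyte markers 8 were measured, with sums of 3415 to 3918 in controls and 2814 to 3885 in UCP1. Of these 1 was called, Lep, which rose by 1.04, while 7 of the 8 were below 0. The lowest was Cebpa at -0.69, which was not called. After quantile normalization 1 of the 8 was below 0. The sums say little about Cebpa, which read 2.16 to 6.72, or Lep, which read at most 3.10. Of 9 preadipocyte and fibroblast markers, with a median of 0.49, 4 rose (Lum by 0.90, Thy1 by 0.80, Dcn by 0.79 and Pdgfra by 0.67). After quantile normalization 5 were called higher. Postn, at 0.49, and Dlk1, at 0.34, were not called in the deposited scaling, and Cd34 was at -0.29, Col1a1 at -0.21 and Col3a1 at -0.06. The sums of these 9 markers, 742 to 999 in controls and 809 to 1045 in UCP1, are mostly Col3a1, which read 511 to 734. Of 4 macrophage markers, with sums of 10.97 to 16.0 in controls and 13.6 to 14.6 in UCP1, Lyz2 rose by 1.48 while Ptprc and Adgre1 read at most 0.334 on any array. Most of the macrophage sums is Cd14, which read 9.99 to 14.4 and was at -0.22. Endothelial and muscle markers had 0 calls, with sums of 1.10 to 1.62 and 7.58 to 9.09 in controls and 1.24 to 1.998 and 5.28 to 7.22 in UCP1, where Vwf, at 0.47, and Des, at -0.60, had the smallest p. The part of these markers in the synthetase differences was not tested.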

How the data were processed

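The authors deposited linear spot intensities from one-colour CodeLink arrays of biotin-labelled RNA, per the labels, with array medians of 1.04 to 1.05. How these were background-corrected and scaled is not stated in the labels or the file. The code -9999 (116 to 125 probes per array) was treated as missing, and values at or below 0 (80 to 159 per array) were set to the array's smallest positive value before log2. Probes with at least 2 values per group were tested (36116 of 36227). Probes carried 1 gene symbol (21615), several (681) or none (13931), and only the first were named. RefSeq held all 34 members by gene identifier.

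The comparison used limma (version 3.58.1, R version 4.3.3; lmFit, eBayes with an intensity trend, two-sided), adjusted by Benjamini-Hochberg over all tested probes. The same code was tested on simulated data. The number of arrays limits the precision. Every member was named. Cars2 is given array by array because it was called, and the others so given were chosen after their values were seen. Of other lists up to 4 called genes were named, or the one with the smallest p. Atf4, Asns, Psat1, Ptprc, Adgre1, Cd14, Cd34, Cebpa, Col1a1, Col3a1, Postn, Dlk1, Hars2 and 4 further called amino acid response genes were added after their values were seen. Members and lists were chosen with earlier results of these data known. The alternatives were an offset, missing low values, quantile and cyclic loess normalization, brighter probes, no trend, robust eBayes, array weights, a replicate block, probe averaging and each array left out.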

Additional observations from a re-analysis of the deposited data

How the results depend on the processing

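Of 17 alternatives 16 were planned, and the test of brighter probes without a trend was added after seeing the data. Synthetases called higher stayed at 0 in all 17. Cytosolic members called lower, 0 as reported, came to 3 with an offset before log2, 3 with values at or below 0 as missing, 4 with robust eBayes, 4 with array weights, 7 among brighter probes and 6 among brighter probes without a trend. Leaving out 1 array gave 0 to 6 (6 without UCP1 2). Mitochondrial members called lower, 1 as reported, came to 2 with array weights and 0 with quantile normalization, cyclic loess, no trend, the mean over a gene's probes or a replicate block, and 0 to 3 with 1 array left out. With the replicate block Cars2 had an adjusted p of 0.0661 and 776 probes were called, against 1021 without it. Deviations from the group mean, over brighter probes, were correlated between control and UCP1 arrays. Same-numbered arrays gave -0.24 to 0.10 and differently numbered ones -0.36 to 0.35. The numbers only name the UCP1 arrays, and the labels do not say whether arrays were paired. With 3 arrays per group these correlations cannot settle that. Probes called also rose, to 1178 with an offset, 1149 with values at or below 0 as missing and 1313 with robust eBayes. They came to 1811 with array weights, 2239 among brighter probes and 2135 among those without a trend. Without a trend over all probes 0 were called (limma, 4951 at an unadjusted p under 0.05). With 1 array left out 159 to 1894 were called (159 without UCP1 3). The cytosolic median was -0.21 after quantile normalization and -0.23 after cyclic loess. Some members changed sign. Quantile normalization gave 0.22 for Aars, 0.21 for Eprs, 0.053 for Hars, 0.0099 for Kars, 0.0088 for Iars2, 0.028 for Mars2 and 0.0051 for Pars2. Cyclic loess gave 0.19 for Aars, 0.18 for Eprs, 0.069 for Hars and 0.024 for Mars2, and the mean over probes gave 0.11 for Iars2. With 1 array left out the range was -0.13 to 0.11 for Aars, -0.15 to 0.054 for Eprs, -0.24 to 0.023 for Hars, -0.070 to 0.12 for Rars, -0.028 to 0.18 for Lars2, -0.15 to 0.021 for Mars2 and -0.13 to 0.00058 for Vars2. The cause of these changes was not tested. Wars and Sars2 were not tested among brighter probes, and for Sars2 the signal near the dimmest probes limits what can be said.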
